A study of Homo sapiens with 9 samples.

Results

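The proteasome subunit genes are taken here as the genes whose platform annotation gives a single symbol made of PSM, a letter between A and G, and a number. The rule found 42 such genes among 19775 genes with a named probe set, and each is represented by the probe set of highest mean signal over the 9 arrays, out of 81 probe sets for these genes. They comprise 13 genes of the core particle, 14 genes of the regulatory particle and 15 others, which are inducible or tissue forms of core subunits, assembly chaperones, activators and an inhibitor. Probe sets of PSMA6 and PSME2 carry several symbols and fall outside the rule, and PSMC5, PSMD7, PSMD13 and PSMB11 were not analysed here. Of the 42 genes, 39 passed the filter on low signal and were tested, and PSMB8, PSMA8 and PSMD5 did not pass it.

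The data are gene expression profiles of HEK293, an established human embryonic kidney cell line, on 9 oligonucleotide arrays with 1 array per sample. The Knock Down group (3 arrays) received small interfering RNA against hMOF, the Over Expression group (3 arrays) was transfected with a plasmid that encodes hMOF, and the Wild type group (3 arrays) was untreated. MOF, the product of KAT8, is a histone acetyltransferase that acts on lysine 16 of histone H4, and the comparisons ask how transcripts differ when its level is raised or lowered. All 3 groups share the parental line and its serum-containing medium. Wild type cells were not transfected, so each comparison with them holds the transfection together with the change in MOF, and control samples given an unrelated double-stranded RNA were not analysed here. The labels give neither the share of cells that took up the plasmid or the RNA, nor whether each replicate was a culture of its own, so the spread behind the p-values may be technical.

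The proteasome is the protease that degrades most ubiquitin-tagged proteins of the cytosol and nucleus. Its core particle stacks outer rings of alpha subunits, which gate the entrance, on inner rings of beta subunits, some of which carry the proteolytic sites. The regulatory particle caps the core: its base unfolds substrates with a ring of ATPases, and its lid removes the ubiquitin chain. Interferon and some tissues exchange the catalytic beta subunits for inducible forms, and alternative activators can take the place of the regulatory particle.

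Signals below are the authors' scaled intensities, and a fold change is a difference of mean log2(signal + 1) with its standard error (SE, n = 3 arrays a group). A gene is said to have risen or fallen where the adjusted p of limma was below 0.05. KAT8 was measured first. Its signal was 432.0, 705.8 and 517.1 on the knockdown arrays, 4594.3, 4727.2 and 4763.0 on the overexpression arrays, and 2909.5, 3796.8 and 3248.7 on the wild type arrays, and no groups overlapped. It fell 6.10-fold in the knockdown relative to wild type (log2 -2.61, SE 0.17, limma adjusted p = 4.72e-05). Overexpression was 1.42-fold above wild type, which did not pass (log2 0.51, SE 0.17, limma adjusted p = 0.259). With the replicate number as a block in the fit, or with a term for replicate 1, this difference in KAT8 was called. In replicates 2 and 3 alone it was not, and the replicate numbers did not meet the bound for pairing in this comparison. The sources used here do not say whether the transcript of the plasmid holds the sequence of this probe set.

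Markers of the HEK293 line had summed signals of 7 genes of 97817.5 to 111728 in the knockdown, 92186.2 to 109117 in overexpression and 100640 to 105242 in wild type. VIM, at 64306.8 to 85791.4, made up most of each sum. Of the 7 genes, 2 fell in the knockdown, KRT8 and PAX2, and PAX2 was dim, at 184.3 to 667 over the 9 arrays. The call of KRT8 (limma adjusted p = 0.0223) was lost without knockdown replicate 1 or 3 and without wild type replicate 1 or 2, at adjusted p-values of 0.0509 to 0.0838, and in replicates 2 and 3 alone (0.0687). Of the blood cell markers, PTPRC stayed between 2.9 and 77.8 on all 9 arrays, and the summed signal of the 3 measured markers lay between 267.7 and 596.9. The 4 fibroblast markers summed to 1621.9 to 2255.9 in the knockdown, 2233.8 to 3467 in overexpression and 2474.1 to 2779 in wild type. COL1A1, at 1429 to 2819.1, made up most of each of these sums. The arrays of replicates 2 and 3 read the spiked-in poly-A controls 2.22-fold brighter than those of replicate 1, which is treated as a possible batch. The 3′ to 5′ signal ratio of ACTB, a measure of RNA integrity, was 1.21 to 1.31 in the knockdown, 1.18 to 1.38 in overexpression and 1.39 to 1.43 in wild type. That of GAPDH overlapped between the groups, at 0.996 to 1.11 in the knockdown, 0.981 to 1.11 in overexpression and 0.990 to 1.04 in wild type. The part of these ratios, the markers or the batch in the results below was not tested, beyond the within-batch values given.

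Relative to wild type, the knockdown changed individual proteasome genes by modest amounts and in both directions. PSME1, which encodes a subunit of the interferon-inducible activator, rose 1.59-fold, and PSMB10, the inducible form of the trypsin-like catalytic subunit, rose 1.75-fold. PSMD4, PSMD10, PSMC3, PSMD6, PSMB7 and PSMB1 fell by 1.20-fold to 1.38-fold. In all, 8 of 39 tested members changed (20.5%), 2 higher and 6 lower. Over all probe sets tested, 15.7% were called in this comparison, 6.82% higher and 8.89% lower. Over named genes with 1 probe set each, the share was 19.4%, with 6.7% higher and 12.7% lower, so the share among the members is near that of other genes.

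**Figure D1:**
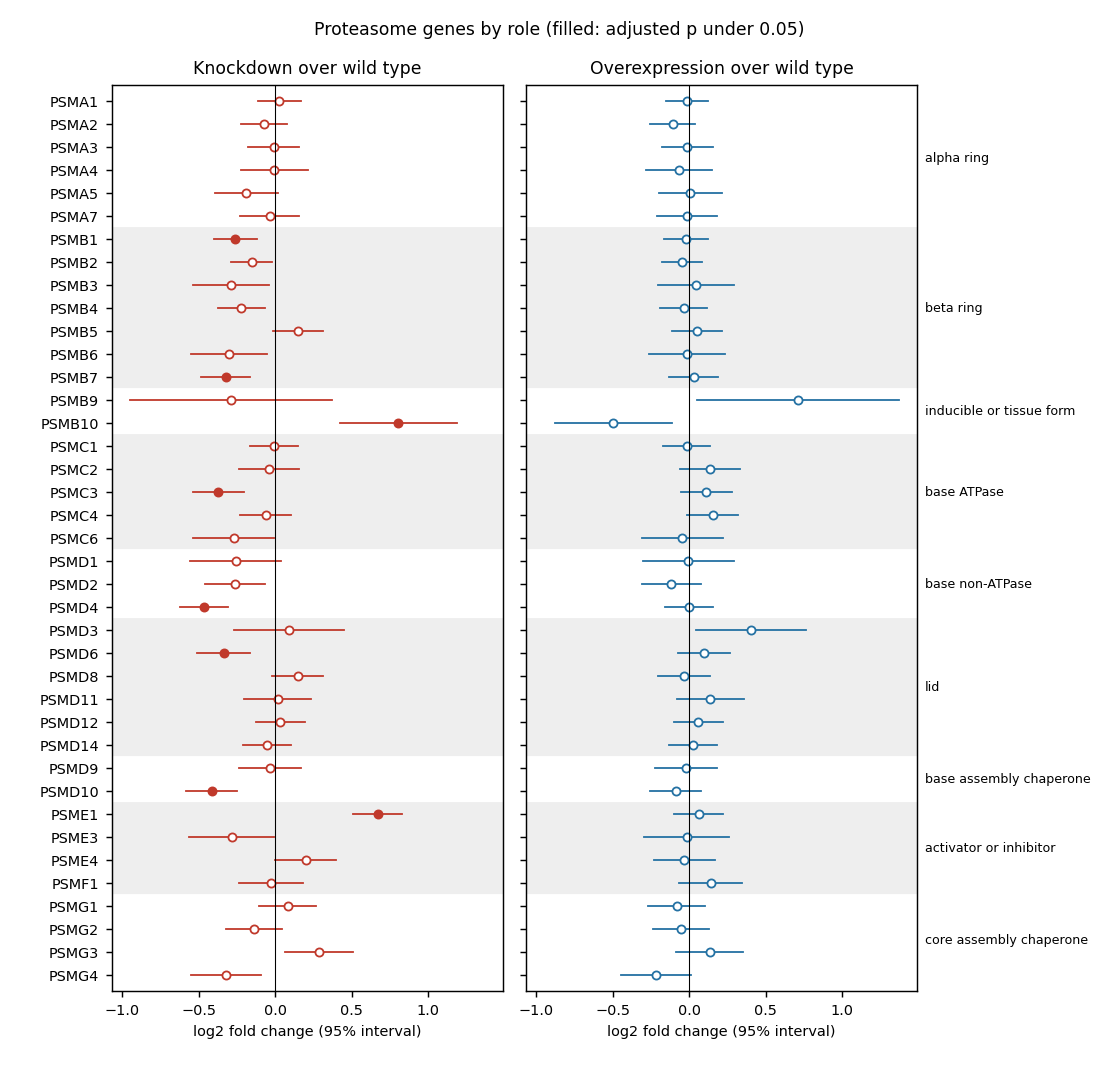
Log2 fold change with its 95% confidence interval (horizontal axis) for each of the 39 tested proteasome genes (rows, grouped by role), for knockdown over wild type on the left and overexpression over wild type on the right, from 3 arrays a group. Filled points have a limma adjusted p under 0.05; on the left 8 points are filled, 6 below 0 and 2 above, and on the right none is filled.

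The plot of fold changes by role shows where in the complex these genes lie. In the core particle, 11 of 13 genes had a fold change below 0 in the knockdown and the median was -0.15 on the log2 scale, against a median of -0.04 over named genes and 0.01 over all probe sets tested. The regulatory particle had 10 of 14 genes below 0 and a median of -0.06. The share below 0 was 71.8% over all tested members and 55.3% over named genes. Within the core the rings differed: the 7 genes of the beta ring had a median of -0.26, with 2 that fell and 6 at an unadjusted p under 0.05 (34.7% of named genes), while the 6 genes of the alpha ring had a median of -0.02, with none at an unadjusted p under 0.05. This difference between rings was not tested. In the regulatory particle, the medians were -0.06 for the 5 base ATPases, -0.26 for the 3 other base subunits and 0.03 for the 6 lid subunits.

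The 2 members that rose did so on every array. PSME1 had signals of 11959.3, 11805.7 and 11545.3 in the knockdown, 7457.8, 7570.7 and 8118.9 in overexpression, and 7470.3, 7366.5 and 7332.0 in wild type. The knockdown arrays lay above all 6 others, while overexpression and wild type overlapped. Its log2 fold change in the knockdown was 0.67 (SE 0.07, limma adjusted p = 0.000333) relative to wild type. PSMB10 had signals of 2399.5, 2257.1 and 2175.5 in the knockdown, 1053.6, 682.2 and 1088.5 in overexpression, and 1437.6, 1207.1 and 1269.8 in wild type. No groups overlapped, with the knockdown highest and overexpression lowest. Its log2 fold change in the knockdown was 0.81 (SE 0.17, limma adjusted p = 0.0114). Within replicates 2 and 3 alone both rises were called, with log2 values of 0.67 for PSME1 and 0.84 for PSMB10, and between the replicate 1 arrays the differences were 0.68 for PSME1 and 0.74 for PSMB10.

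PSMB10 and PSME1 are known interferon-inducible genes, so other genes of that kind are given beside them. Of 7 tested markers of cells induced by interferon, 3 rose in the knockdown relative to wild type and none fell. Of named genes, 6.7% rose and 12.7% fell in that comparison. IFIT3, which encodes an antiviral protein, had signals of 1070.9, 1199.6 and 1046.1 in the knockdown, 120.9, 274.1 and 226.6 in overexpression, and 177.3, 145.1 and 193.9 in wild type (log2 2.68, SE 0.29, limma adjusted p = 0.000348). IFIT1 (log2 0.88, SE 0.13) and ISG15, a ubiquitin-like modifier (log2 1.66, SE 0.18), rose as well. The antigen transport genes TAP1 and TAP2 had log2 values of 0.01 and 0.07, IRF1 of 0.35 and B2M of -0.12, and none of these passed. The summed signal of the marker list was 49109.5 to 51859.5 in the knockdown, 48706.8 to 51688.9 in overexpression and 48695.7 to 51922.6 in wild type. B2M made up most of it, and the sum of the other 7 measured markers was 9512.3 to 10597.8 in the knockdown, 5678.5 to 6547.6 in overexpression and 5722 to 6377.2 in wild type. The part of an interferon response in the levels of PSMB10 and PSME1 was not tested. Of the other inducible subunits, PSMB8 stayed between 3.8 and 14.3 on all 9 arrays, below the filter, and was not tested. PSMB9, described below, did not pass in the knockdown relative to wild type (log2 -0.29, limma adjusted p = 0.557).

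**Figure D2:**
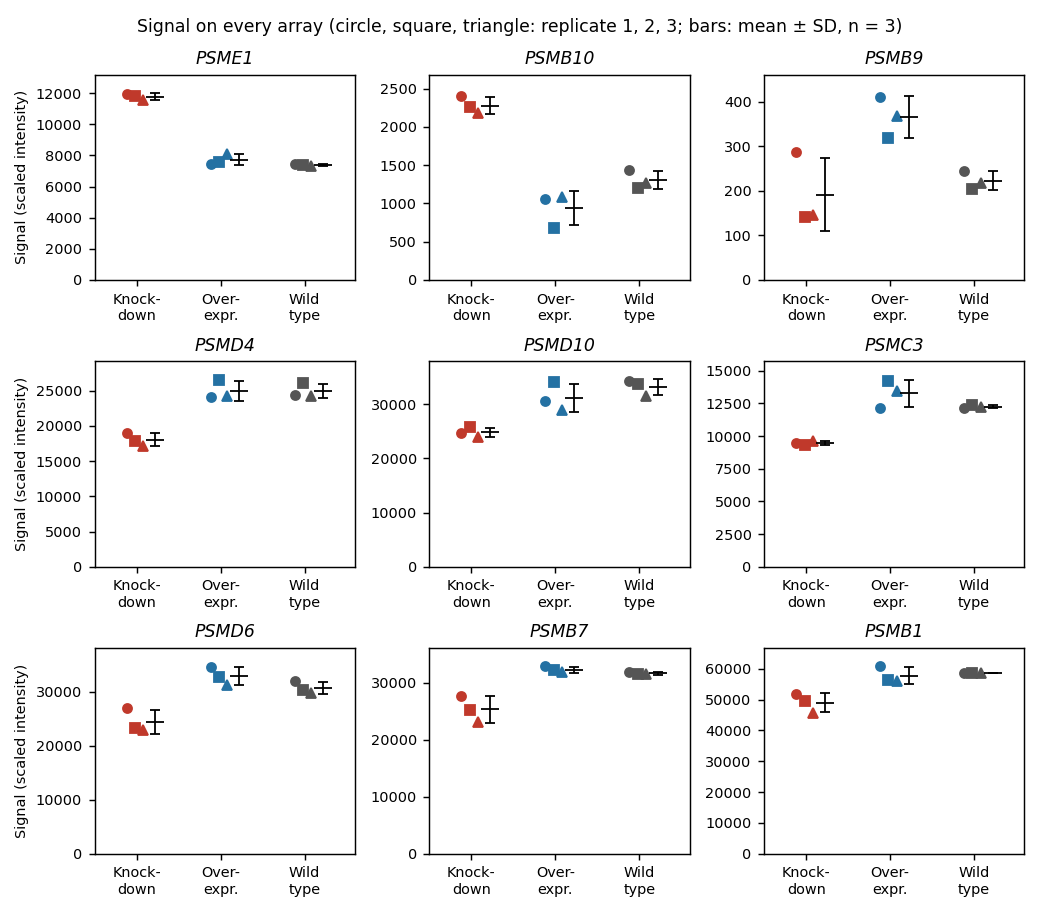
Scaled signal (vertical axis, from 0) on each of the 9 arrays for the 9 proteasome genes called in a comparison with the knockdown, by group (horizontal axis), with mean and SD bars (n = 3). The knockdown arrays lie above the others for PSME1 and PSMB10 and below them for PSMD4, PSMD10, PSMC3, PSMD6, PSMB7 and PSMB1.

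The members that fell in the knockdown came from several parts of the complex. PSMD4, the ubiquitin receptor of the base, had signals of 18970.7, 17877.8 and 17190.9 in the knockdown, 24048.2, 26506.8 and 24211.4 in overexpression, and 24413.1, 26030.7 and 24245.9 in wild type. The knockdown arrays lay below all others, and overexpression and wild type overlapped. Relative to wild type PSMD4 fell by 0.47 on the log2 scale (limma adjusted p = 0.00213, SE 0.07), or 1.38-fold. PSMD10, the base assembly chaperone also known as gankyrin, had 24745.1, 25686.1 and 23967.2 in the knockdown, 30566.3, 33987.1 and 28849.4 in overexpression, and 34170.0, 33631.0 and 31450.6 in wild type. It too was lowest on the knockdown arrays, and fell by 0.42 on the log2 scale (limma adjusted p = 0.00472, SE 0.07) relative to wild type. PSMC3, an ATPase of the base, had 9502.8, 9285.2 and 9606.6 in the knockdown, 12139.7, 14201.1 and 13410.0 in overexpression, and 12145.4, 12355.9 and 12231.4 in wild type. The knockdown arrays again lay below all others, and PSMC3 fell by 0.37 on the log2 scale (limma adjusted p = 0.00917, SE 0.08). Each of these 3 calls held when any 1 of the 6 arrays was left out, and in replicates 2 and 3 alone, where the log2 values were -0.52 for PSMD4, -0.39 for PSMD10 and -0.38 for PSMC3. Between the replicate 1 arrays they were -0.36 for PSMD4, -0.47 for PSMD10 and -0.35 for PSMC3.

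The other 3 falls were smaller, and each lost its call in at least 1 fit that left out an array. Such fits also called fewer of all probe sets, 2213 to 3653 against 4289 with every array. PSMD6, a structural subunit of the lid, had 26990.4, 23301.2 and 22856.2 in the knockdown, 34604.2, 32635.2 and 31262.2 in overexpression, and 31976.2, 30302.2 and 29829.1 in wild type. It fell by 0.34 on the log2 scale relative to wild type (limma adjusted p = 0.0159, SE 0.08), and the adjusted p was 0.0669 without knockdown replicate 2, 0.0645 without knockdown replicate 3 and 0.0516 without wild type replicate 2. PSMB7, the constitutive trypsin-like catalytic subunit that PSMB10 replaces, had 27721.6, 25242.8 and 23000.5 in the knockdown, 32848.1, 32113.8 and 31837.2 in overexpression, and 31843.3, 31412.9 and 31533.6 in wild type. PSMB7 thus lay lowest in the knockdown, where PSMB10 lay highest. It fell by 0.32 on the log2 scale (limma adjusted p = 0.0138, SE 0.07), with 0.0517 without knockdown replicate 3. PSMB1, a beta subunit without a proteolytic site, had 51747.8, 49469.7 and 45663.3 in the knockdown, 60954.7, 56463.9 and 55879.2 in overexpression, and 58594.9, 58676.8 and 58524.1 in wild type. Its knockdown arrays lay below all others, and it fell by 0.26 on the log2 scale (limma adjusted p = 0.0203, SE 0.06). That adjusted p was 0.0595 without knockdown replicate 2, 0.0736 without knockdown replicate 3, 0.0699 without wild type replicate 2 and 0.0524 without wild type replicate 3. In replicates 2 and 3 alone all 3 were called, at -0.38 for PSMD6, -0.39 for PSMB7 and -0.30 for PSMB1, and between the replicate 1 arrays the differences were -0.24 for PSMD6, -0.20 for PSMB7 and -0.18 for PSMB1.

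Promoter sequences are shown for members that changed in the knockdown in opposite directions, so that the letters before the start of risen and fallen genes can be set side by side. They are the 250 bases before the annotated start in the RefSeq table of build GRCh38.p14, 5′ to 3′ on the strand of the gene. PSME1 lies at chr14:24135944-24136193 (plus strand), PSMB10 at chr16:67936851-67937100 (minus strand), PSMC3 at chr11:47426440-47426689 (minus strand), PSMD10 at chrX:108091543-108091792 (minus strand) and PSMD6 at chr3:64023495-64023744 (minus strand). Capitals mark matches on either strand to the 6 motifs searched, which do not overlap one another in these sequences.
PSME1: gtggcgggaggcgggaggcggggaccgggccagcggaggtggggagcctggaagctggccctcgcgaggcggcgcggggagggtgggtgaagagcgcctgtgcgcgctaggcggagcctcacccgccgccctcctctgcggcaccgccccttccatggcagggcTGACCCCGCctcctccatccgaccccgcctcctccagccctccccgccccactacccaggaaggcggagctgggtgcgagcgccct
PSMB10: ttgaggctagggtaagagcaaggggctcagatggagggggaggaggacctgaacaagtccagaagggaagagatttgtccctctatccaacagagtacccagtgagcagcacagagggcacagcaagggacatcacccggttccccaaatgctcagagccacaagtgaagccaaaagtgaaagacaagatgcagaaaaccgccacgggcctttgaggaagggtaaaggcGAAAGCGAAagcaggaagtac
PSMC3: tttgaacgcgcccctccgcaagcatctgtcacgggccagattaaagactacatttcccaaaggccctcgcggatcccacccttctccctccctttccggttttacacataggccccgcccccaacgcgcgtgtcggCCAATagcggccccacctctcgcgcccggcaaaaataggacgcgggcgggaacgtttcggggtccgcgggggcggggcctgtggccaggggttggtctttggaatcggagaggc
PSMD10: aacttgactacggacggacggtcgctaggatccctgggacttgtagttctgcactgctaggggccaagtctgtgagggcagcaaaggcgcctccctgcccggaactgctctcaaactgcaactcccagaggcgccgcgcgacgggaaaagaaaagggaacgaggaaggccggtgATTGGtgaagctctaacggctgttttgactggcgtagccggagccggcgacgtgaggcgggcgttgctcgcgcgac
PSMD6: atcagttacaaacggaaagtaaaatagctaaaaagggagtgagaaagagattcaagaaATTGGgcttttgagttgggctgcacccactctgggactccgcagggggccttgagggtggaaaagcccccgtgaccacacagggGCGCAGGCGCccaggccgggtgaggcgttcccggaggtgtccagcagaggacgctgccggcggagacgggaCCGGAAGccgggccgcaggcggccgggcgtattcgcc
The antioxidant response element core was searched as TGACNNNGC, where N is any base, and the CCAAT box by the letters of its name. The ETS motif, which binds a large family of growth-related transcription factors, was CCGGAAG. The box bound by the general initiation machinery was searched as TATAAA, and a nuclear respiratory factor motif was searched as well. The core of the interferon-stimulated response element, searched as GAAANNGAA, was added after the letters of PSMB10 had been seen.

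Of the 2 genes that rose, PSME1 held the antioxidant motif starting 86 bases before the start and PSMB10 held the interferon motif starting 21 bases before it. The 3 genes that fell and are printed each held a CCAAT box, in PSMC3 starting 114 bases before the start, and PSMD6 also held the ETS and nuclear respiratory factor motifs. The table matched 36 of the 42 members, and PSMA7, PSMB1, PSMB6, PSMB7, PSMD4 and PSMG3 are named only. The CCAAT box was in 41.7% of the 36 member promoters and 33% of all 27305 promoters, the antioxidant motif in 27.8% of member promoters and 11% of all, and the ETS motif in 25% of member promoters and 8.82% of all. The nuclear respiratory factor motif was in 5.56% of member promoters and 5.53% of all, the TATA motif in 11.1% of each, and the interferon motif in 11.1% of member promoters and 7.06% of all. The interferon motif was present in PSMB4, PSMG4, PSMA4 and PSMB10, of which PSMB10 alone rose. These matches describe letters and not binding.

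The remaining members of each role did not pass relative to wild type. For 11 of them the knockdown arrays did not overlap the wild type arrays. Of named genes, called ones included, 39% did not overlap in this comparison. In the alpha ring PSMA5 had the smallest p, with signals of 21278.3, 19556.8 and 18752.4 in the knockdown, 25205.1, 20581.1 and 22538.7 in overexpression, and 24947.2, 22060.4 and 20926.4 in wild type. These groups overlapped, and the difference from wild type did not pass (log2 -0.19, SE 0.09, limma adjusted p = 0.209). The 6 alpha genes ranged in log2 fold change between -0.19 and 0.03. In the beta ring, 4 further genes had values below 0 without passing: PSMB6, the caspase-like catalytic subunit (log2 -0.30, limma adjusted p = 0.0925), PSMB3 (-0.29, 0.109), PSMB4 (-0.22, 0.0549) and PSMB2 (-0.15, 0.109). PSMB5, the chymotrypsin-like catalytic subunit, was the one beta ring gene above 0 (log2 0.15, SE 0.08, limma adjusted p = 0.206), and its 3 knockdown arrays (29442.1, 26630.8 and 26294.5) lay above the 3 wild type arrays (25237.4, 24865.3 and 24073.6). The 3 constitutive catalytic subunits thus had values of both signs.

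In the base, PSMD2 and PSMD1, the large scaffold subunits, had log2 values of -0.26 each without passing (limma adjusted p = 0.0671 and 0.229). The ATPase genes other than PSMC3 ranged between -0.27 for PSMC6 and -0.01 for PSMC1. In the lid, PSMD14, the deubiquitinase, had a log2 value of -0.05, and the 6 genes ranged between -0.34 and 0.15. Among the core assembly chaperones, PSMG4 had signals of 6980.1, 6308.8 and 6496.3 in the knockdown, 7458.2, 6735.3 and 7022.0 in overexpression, and 7051.2, 9071.4 and 8709.5 in wild type. Its knockdown arrays lay below wild type, though knockdown replicate 1 by little, and the difference did not pass (log2 -0.32, SE 0.10, limma adjusted p = 0.0595). PSMG3, of the same family, pointed the other way (log2 0.29, SE 0.10, limma adjusted p = 0.0748). Of the alternative activators, PSME3 had a log2 value of -0.28 and PSME4 of 0.20, and PSMF1, an inhibitor of the core, of -0.03. None of these 3 passed. The chaperone PSMD9 had a log2 value of -0.03, and PSMA8, the testis form of an alpha subunit, and PSMD5, a base chaperone, stayed between 5.2 and 139.9 on all arrays.

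How many members are called depends on whether replicates are compared within their number. Arrays of the same replicate number deviated together in both comparisons with the knockdown, at correlations of 0.137 to 0.362 with wild type. A pair of different numbers reached 0.18 there, above the same-number pairs of replicates 2 and 3 (0.144 and 0.137). With the replicate number as a block 18 of 39 members passed relative to wild type (46.2%), against 33.4% of named genes. The block added PSMG3 to those that rose, and PSMA5, PSMB3, PSMB4, PSMB6, PSMC6, PSMD1, PSMD2, PSME3 and PSMG4 to those that fell. With a term for replicate 1 in place of the block 19 passed, with PSMB2 as the addition. In replicates 2 and 3 alone 15 passed (38.5%), against 23.9% of named genes. Without a trend in the variance 5 passed, namely PSMB10, PSME1, PSMC3, PSMD4 and PSMD10, against 15.6% of named genes. The count was 5 without knockdown replicate 3, and 11 without wild type replicate 1. Over all 27307 probe sets the calls were 2273 and 3653 in those fits, against 4289 with every array. The 95% interval lay within 1.5-fold either way for 35 of 39 members, against 51.5% of named genes, which were not matched to the members in signal. The groups did not overlap for 19 of 39 members, 6 higher and 13 lower, where 39% of named genes and 35.2% of all probe sets (16.9% higher, 18.3% lower) did not overlap. A lower level per cell and fewer cells that express a gene cannot be told apart in these bulk samples, nor can a change in total RNA per cell be seen after the authors' scaling.

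**Figure D3:**
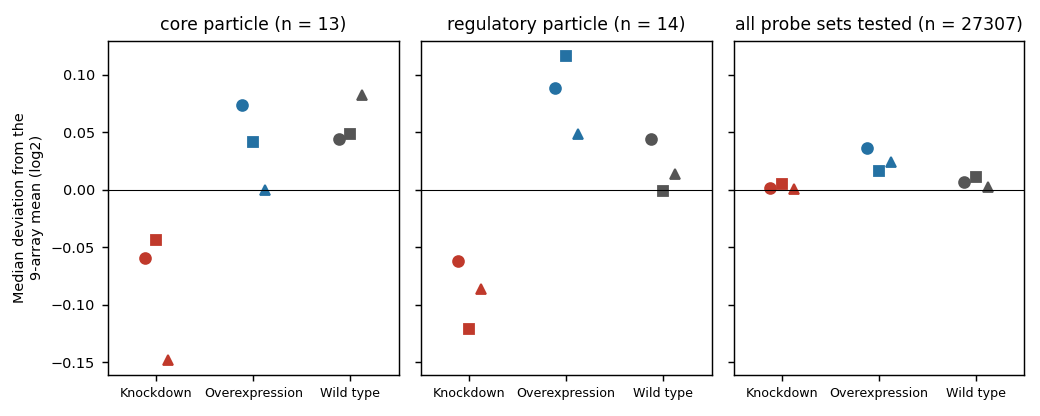
Median deviation of each array from the mean of the 9 arrays (vertical axis, log2) over the core particle genes, the regulatory particle genes and all probe sets tested, by group (horizontal axis), with circle, square and triangle for replicates 1, 2 and 3. The 3 knockdown arrays lie between -0.15 and -0.04 for the core and between -0.12 and -0.06 for the regulatory particle, and all 9 arrays lie within 0.04 of 0 for all probe sets.

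The plot of medians by array shows the particles as a whole. The core particle median deviated by -0.08 ± 0.06 on the knockdown arrays, 0.04 ± 0.04 on the overexpression arrays and 0.06 ± 0.02 on the wild type arrays (log2, SD, n = 3 each). The regulatory particle median deviated by -0.09 ± 0.03 on the knockdown arrays, 0.08 ± 0.03 on the overexpression arrays and 0.02 ± 0.02 on the wild type arrays. The knockdown arrays lay below the other 6 for both particles, while overexpression and wild type overlapped for the core. They did not overlap for the regulatory particle, where the lowest overexpression array was at 0.05 and the highest wild type array at 0.04. Over all probe sets tested the array medians lay within 0.04 of 0 in every group. There too overexpression and wild type did not overlap, at 0.016 to 0.036 in overexpression and 0.002 to 0.011 in wild type. The separation is thus not particular to the regulatory particle. These are descriptions of lists with no test.

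Further probe sets gave a check of single genes, since 19 members had 29 other tested probe sets. Relative to wild type, 20 of the 29 had the sign of the probe set that stood for the gene. For PSMD4, whose leading probe set is of a design that may cross-hybridise, both other tested probe sets fell, by 0.39 and 0.42 on the log2 scale. PSMD10 fell on its other probe set by 0.30 (SE 0.09, limma adjusted p = 0.0443), and PSMB1 had -0.19 on its other one, which did not pass (limma adjusted p = 0.0789). The genes PSMC2, PSMB4 and PSME3 were called on a dimmer probe set and not on the one that stood for them. PSMC2, a base ATPase, had -0.50 (SE 0.11, limma adjusted p = 0.0129) on that dimmer probe set and -0.04 on its brightest one. PSMB4 had -0.28 on a dimmer probe set (limma adjusted p = 0.0297) and PSME3 had -0.30 (limma adjusted p = 0.0468).

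**Figure D4:**
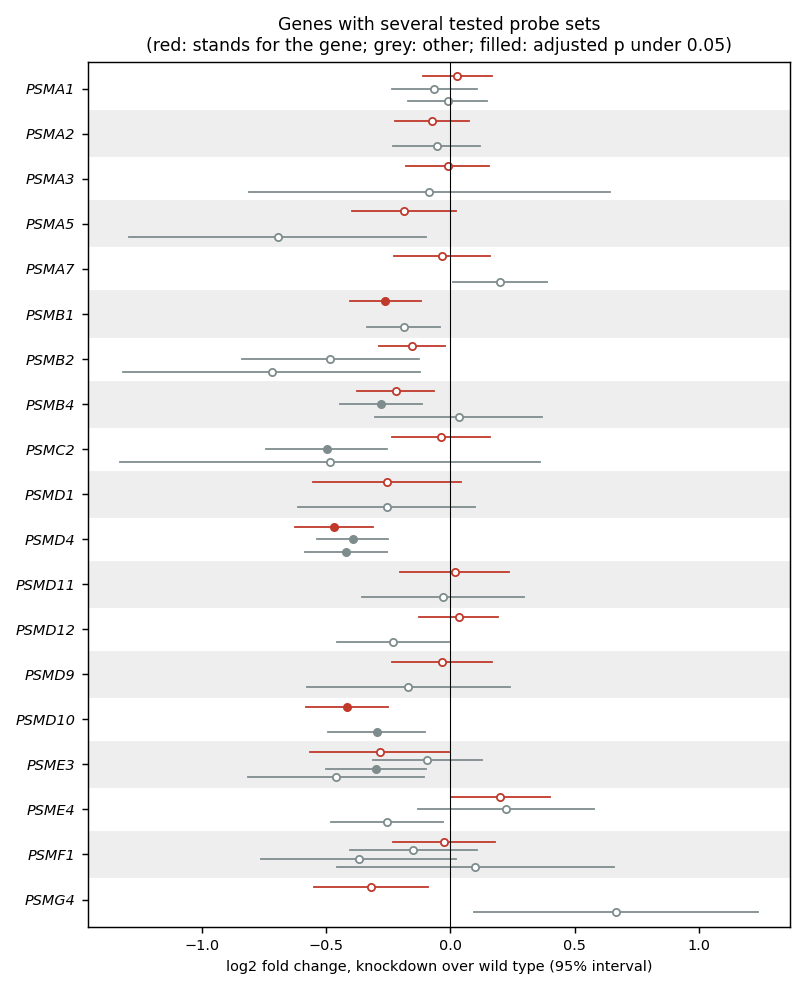
Log2 fold change of knockdown over wild type with its 95% confidence interval (horizontal axis) for every tested probe set of the 19 proteasome genes with several (rows), with red for the probe set that stands for the gene and grey for the others. All 3 probe sets of PSMD4 and both of PSMD10 are filled (limma adjusted p under 0.05), and for PSMC2, PSMB4 and PSME3 a grey one alone is filled.

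After overexpression of MOF none of the 39 tested members passed relative to wild type in limma, where 0.476% of all probe sets (0.319% higher, 0.157% lower) and 0.631% of named genes were called. At an unadjusted p under 0.05 there were 3 members, PSMB9, PSMB10 and PSMD3, against 14% of named genes, and the smallest adjusted p was 0.281. No alternative setting in the closing section called a member either. The 95% interval lay within 1.5-fold either way for 36 of 39 members, against 66% of named genes, which were not matched to the members in signal. The members' log2 fold changes had a median of -0.01 over all 39, -0.01 in the core particle and 0.04 in the regulatory particle, against 0.01 over all probe sets. The 3 genes with wider intervals were also the dimmest of those tested.

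Those 3 genes and the leading gene of each other role had these values. PSMB10 lay lower on all overexpression arrays than on any wild type array, with the signals given above, but did not pass (log2 -0.50, SE 0.17, limma adjusted p = 0.281). PSMB9, the inducible form of the caspase-like catalytic subunit, had 286.1, 141.1 and 146.5 in the knockdown, 410.1, 317.6 and 367.5 in overexpression, and 245.3, 203.0 and 218.3 in wild type. Overexpression lay above both other groups on all arrays, with a log2 value of 0.71 relative to wild type that did not pass (SE 0.30, limma adjusted p = 0.371). The 2 inducible subunits thus pointed in opposite directions. PSMD3, a lid subunit, had 3772.3, 3262.0 and 4107.3 in the knockdown, 5118.1, 3861.7 and 4904.3 in overexpression, and 4330.3, 3421.5 and 2830.5 in wild type. Overexpression and wild type overlapped, and the log2 value was 0.40 (SE 0.16, limma adjusted p = 0.348). TAP1, which lies among the interferon markers, had 2203.2, 1837.6 and 1836.3 in overexpression and 1541.6, 1213.3 and 1495.5 in wild type (log2 0.47, limma adjusted p = 0.225), and IFIT1 was at -0.47 (limma adjusted p = 0.158).

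PSMC4, a base ATPase, had 7319.8, 7001.9 and 7596.4 in the knockdown, 8699.4, 8057.5 and 8704.2 in overexpression, and 7577.1, 7612.4 and 7681.5 in wild type. Its overexpression arrays lay above all others, at a log2 value of 0.15 over wild type (SE 0.08, limma adjusted p = 0.451). PSMA2, an alpha ring gene, had 26678.0, 28477.9 and 29301.8 in the knockdown, 28525.8, 26257.7 and 27592.1 in overexpression, and 28771.2, 28999.6 and 31107.9 in wild type. Overexpression lay below wild type on all arrays by a small margin (log2 -0.11, SE 0.07, limma adjusted p = 0.554). In all, 4 of 39 members had overexpression arrays that did not overlap wild type, 2 higher and 2 lower, where 19.1% of named genes and 17.6% of all probe sets (9.92% higher, 7.67% lower) did not overlap. The base subunit PSMD2 had 8938.0, 9483.6 and 8764.8 in the knockdown, 8974.9, 10903.4 and 10261.6 in overexpression, and 11104.3, 10317.6 and 11186.2 in wild type, with overlap between overexpression and wild type (log2 -0.12, SE 0.09, limma adjusted p = 0.640). The inhibitor PSMF1 had 7131.5, 8194.1 and 8108.8 in the knockdown, 7843.4, 9002.5 and 9477.6 in overexpression, and 7753.9, 7899.2 and 8178.4 in wild type (log2 0.14, SE 0.09, limma adjusted p = 0.592). PSMG4 was at -0.22 (SE 0.10, limma adjusted p = 0.431), PSMD10 at -0.09 (SE 0.07, limma adjusted p = 0.679) and PSMB2, a beta ring gene whose overexpression signals were 31332.7, 29740.0 and 30020.4 against 31294.0, 31128.0 and 31705.2 in wild type, at -0.05 (SE 0.06, limma adjusted p = 0.804).

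Set directly against overexpression, the knockdown gave a pattern that shares its knockdown arrays with the comparison above. Of 39 members 9 changed (23.1%), 2 higher and 7 lower, where 14.5% of all probe sets (5.75% higher, 8.76% lower) and 18.4% of named genes were called. PSMB10 and PSME1 were again higher, and PSMC3, PSMD4, PSMD6, PSMB7, PSMD10, PSMB1 and PSMB9 were lower. PSMB10 was 2.47-fold higher (log2 1.30, SE 0.17, limma adjusted p = 0.00107), its overexpression arrays lying below wild type. PSME1 was 1.53-fold higher (log2 0.61, SE 0.07, limma adjusted p = 0.000611). PSMC3 fell by 0.48 (SE 0.08, limma adjusted p = 0.00268), PSMD4 by 0.47 (SE 0.07, limma adjusted p = 0.0022) and PSMD6 by 0.43 (SE 0.08, limma adjusted p = 0.0051) on the log2 scale. PSMB7 fell by 0.35 (SE 0.07, limma adjusted p = 0.00931), and like the 5 before it this call held without any 1 array. The medians were -0.11 in the core particle and -0.20 in the regulatory particle, against -0.05 over named genes, with the beta ring at -0.24 and the alpha ring at 0.02.

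The other 3 falls between the treated groups each lost the call in at least 1 fit that left out an array. Such fits also called fewer of all probe sets, 2040 to 3289 against 3963 with every array. PSMD10 fell by 0.33 on the log2 scale (limma adjusted p = 0.0154, SE 0.07), with 0.0594 without knockdown replicate 3. PSMB1 fell by 0.24 (SE 0.06, limma adjusted p = 0.030), with 0.0809 without knockdown replicate 2, 0.105 without knockdown replicate 3 and, among the overexpression arrays, 0.0924 without replicate 1, 0.0544 without replicate 2 and 0.0623 without replicate 3. PSMB9 fell by 1.00 (SE 0.30, limma adjusted p = 0.047), with 0.150 without knockdown replicate 2, 0.147 without knockdown replicate 3 and, among the overexpression arrays, 0.122 without replicate 1, 0.0733 without replicate 2 and 0.124 without replicate 3. PSMB9 was dim, near the filter at a signal of 188, and its knockdown replicate 1 (286.1) lay well above the other 2. Of the roles without a call on the probe sets that stand for the genes, PSMA5 led the alpha ring at -0.19 (SE 0.09, limma adjusted p = 0.2) and PSMG1 the core chaperones at 0.16 (SE 0.09, limma adjusted p = 0.232), with PSMG1 signals of 16968.8, 18835.7 and 19569.1 in the knockdown and 14832.2, 17693.5 and 16981.1 in overexpression. Of the 29 other tested probe sets 9 were called, where 14.5% of all probe sets were. Among these, 7 were of genes not called above, namely PSMA5 and PSMA7 of the alpha ring, PSMB4, PSMC2, PSMD11, PSMD12 and PSME3. For genes called above, 2 of 4 other probe sets were called. With the replicate block 18 members passed (46.2%), against 32.6% of named genes. The additions were PSME4, higher, and PSMA5, PSMB3, PSMB4, PSMB6, PSMC4, PSMC6, PSMD1 and PSME3, lower. With the term for replicate 1 there were 19, against 33% of named genes. In replicates 2 and 3 alone 11 passed (28.2%), against 22.7% of named genes. Arrays of the 2 groups did not overlap for 17 of 39 members, where 37.9% of named genes did not.

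The genes that work with the proteasome were followed in a list of 35, of which 29 had a tested probe set. Each is represented by its probe set of highest mean signal, and values of further probe sets of these genes are not given here. In the knockdown relative to wild type 2 rose and 6 fell (27.6%), where 15.7% of all probe sets and 19.4% of named genes were called, and the median log2 fold change was -0.04. After overexpression none passed in the main limma fit, and 6 of 29 were at an unadjusted p under 0.05, against 14% of named genes. With the replicate block 4 of the 29 passed there (13.8%), against 4.95% of named genes. With the term for replicate 1 there were 5 (17.2%), against 5.34%, and in replicates 2 and 3 alone none. The replicate numbers did not meet the bound for pairing in that comparison. ADRM1, a ubiquitin receptor of the regulatory particle, had 9624.5, 8959.4 and 8638.9 in the knockdown, 8586.7, 7312.7 and 7789.1 in overexpression, and 7387.8, 6545.3 and 5719.6 in wild type. It was highest in the knockdown and rose by 0.48 on the log2 scale (limma adjusted p = 0.0132, SE 0.11). UCHL5, the deubiquitinase that ADRM1 anchors, had 7987.6, 8068.5 and 7722.2 in the knockdown, 11829.5, 12602.3 and 12108.2 in overexpression, and 12735.8, 11307.9 and 10702.4 in wild type. It moved the other way and fell by 0.54 (SE 0.08, limma adjusted p = 0.002). SEM1, a small subunit of the lid whose symbol lies outside the PSM series, had 14908.0, 19937.6 and 16332.8 in the knockdown, 24211.7, 29507.9 and 26121.2 in overexpression, and 23646.1, 30467.1 and 30553.3 in wild type. Its knockdown arrays lay below all others, and it fell by 0.73 (SE 0.13, limma adjusted p = 0.00444), more than any tested PSM gene in that comparison.

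**Figure D5:**
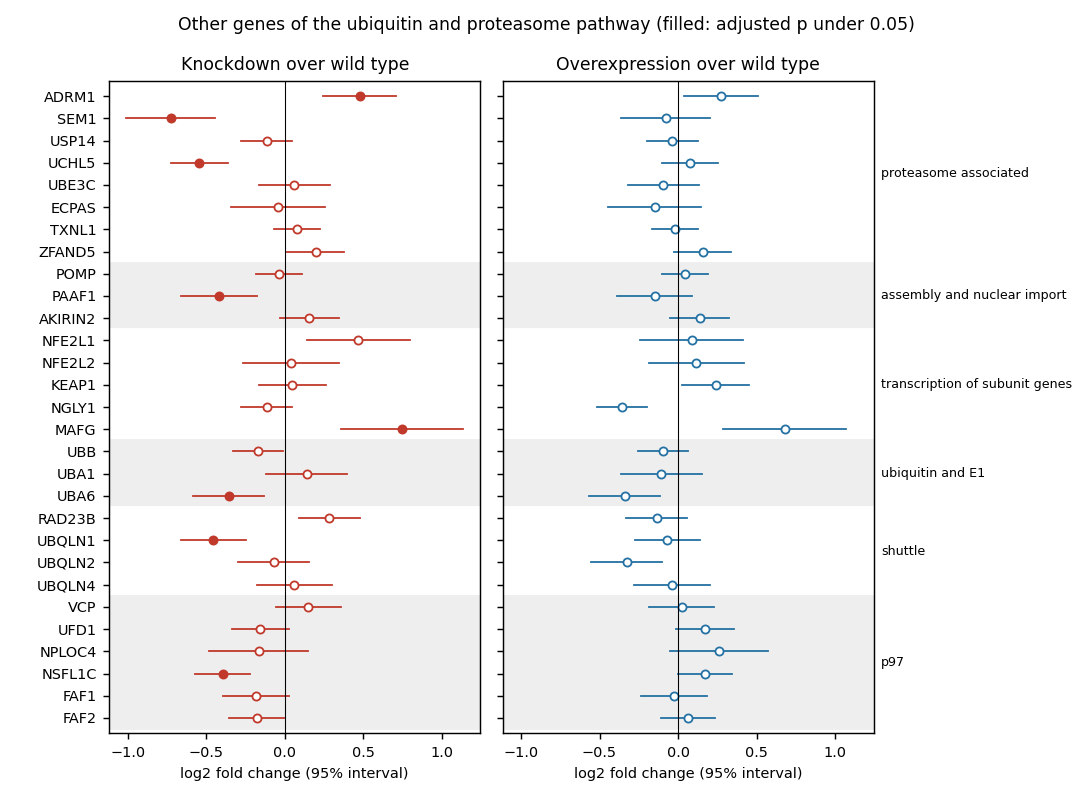
Log2 fold change with its 95% confidence interval (horizontal axis) for 29 other genes of the ubiquitin and proteasome pathway (rows, grouped by role), for knockdown over wild type on the left and overexpression over wild type on the right. Filled points have a limma adjusted p under 0.05; on the left 2 lie above 0 and 6 below, and on the right none is filled.

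Among proteins that bring substrates to the proteasome, UBQLN1, a shuttle factor, had 11117.3, 12804.5 and 12864.0 in the knockdown, 15045.2, 16812.3 and 16187.1 in overexpression, and 14986.3, 17589.6 and 17893.0 in wild type. It was lowest in the knockdown and fell by 0.46 relative to wild type (SE 0.09, limma adjusted p = 0.00901). NSFL1C, a cofactor of the unfoldase VCP, had 5606.6, 5036.3 and 5332.0 in the knockdown, 8139.3, 7728.3 and 7756.8 in overexpression, and 7030.3, 7128.2 and 6840.7 in wild type. It fell by 0.40 (SE 0.08, limma adjusted p = 0.00777) with no overlap between groups. The falls of PAAF1, a base assembly chaperone (log2 -0.42, limma adjusted p = 0.0255), and of UBA6, a ubiquitin-activating enzyme (log2 -0.36, limma adjusted p = 0.038), each missed the threshold in 5 of the 6 fits that leave out an array, where the highest adjusted p was 0.0924 for PAAF1 and 0.135 for UBA6. PAAF1 missed it without any array but wild type replicate 3, and UBA6 without any array but knockdown replicate 1.

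Of the regulators of proteasome gene transcription, MAFG, a small partner of NFE2L1, had 1887.2, 2491.7 and 2910.1 in the knockdown, 2763.3, 1906.5 and 2247.6 in overexpression, and 1353.0, 1581.6 and 1349.2 in wild type. Both treated groups lay above wild type. It rose by 0.75 on the log2 scale in the knockdown (SE 0.18, limma adjusted p = 0.0173), with 0.0599 without knockdown replicate 2, 0.0725 without knockdown replicate 3 and 0.0556 without wild type replicate 3, and was at 0.68 after overexpression (SE 0.18, limma adjusted p = 0.149). NFE2L1, the factor that drives subunit genes when the proteasome is inhibited, had 10807.1, 8237.5 and 8619.4 in the knockdown, 7886.5, 5857.0 and 7506.3 in overexpression, and 7779.0, 6447.1 and 5773.0 in wild type. It did not pass relative to wild type (log2 0.47, SE 0.15, limma adjusted p = 0.0547), while with the replicate block it did (limma adjusted p = 0.002). With the block 12 of the 29 genes passed (41.4%), against 33.4% of named genes. Besides NFE2L1, it added RAD23B, a shuttle factor (log2 0.28, limma adjusted p = 0.0517 without it and 0.00386 with it), ZFAND5 (log2 0.20, limma adjusted p = 0.0427 with it) and FAF2 (log2 -0.18, limma adjusted p = 0.0463 with it). POMP, the chaperone of core maturation, was at -0.04.

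Between knockdown and overexpression 2 genes of the list rose and 5 fell (24.1%), where 14.5% of all probe sets and 18.4% of named genes were called. With the replicate block 13 of the 29 passed, against 32.6% of named genes. NSFL1C (log2 -0.57), UCHL5 (-0.62), SEM1 (-0.65) and RAD23B (0.42, SE 0.09, limma adjusted p = 0.0106) were called, and kept the call without any 1 array. RAD23B had 28287.6, 24847.5 and 26155.0 in the knockdown and 20939.3, 18414.5 and 20001.3 in overexpression. The other 3 each lost the call in some or all of the fits that left out 1 array. UBQLN1 fell by 0.39 (limma adjusted p = 0.0192), with 0.0602 without knockdown replicate 1 and, among the overexpression arrays, 0.0608 without replicate 2 and 0.0695 without replicate 3. UFD1, an adaptor of VCP, fell by 0.33 (limma adjusted p = 0.024), with 0.0702 without knockdown replicate 2, 0.0928 without knockdown replicate 3 and, among the overexpression arrays, 0.0712 without replicate 1 and 0.0503 without replicate 2. NGLY1, the enzyme that trims sugar chains from NFE2L1, rose by 0.24 (limma adjusted p = 0.0495), and its adjusted p ran between 0.0775 and 0.149 when any 1 of the 6 arrays was left out.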

How the data were processed

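Total RNA of 9 HEK293 samples was labelled with biotin and hybridised to 9 oligonucleotide arrays, per the labels' protocols. The authors deposited 1 scaled intensity per probe set and array, on a linear scale; the submitters' processing notes name MAS5, without a version or settings. The 2% trimmed mean intensity of the arrays in the deposited table lay between 1500.18 and 1500.19, as global scaling leaves it. Array image files and detection calls were not used here.

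Intensities were transformed to log2(signal + 1). Of 54675 probe sets, 62 controls were left out and the 27307 at or above the median (7.56, a signal of about 188) of mean log2 signal were tested. The 3 groups, taken from the sample titles, were fitted together in R 4.3.3 by lmFit and trended eBayes of limma 3.58.1, leaving 6 residual degrees of freedom. Tests were two-sided, and p-values were adjusted by Benjamini-Hochberg over all probe sets tested. The precision is limited by 3 arrays a group. The fit was tested on simulated data.

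Names came from the annotation of the platform, where 41097 probe sets had 1 symbol, 1801 several and 11777 none; all 42 members matched the RefSeq table. The members, roles, marker and pathway lists and tests were chosen with earlier results of these data known, and all lists are described by counts and medians. Named in full were KAT8, members past the threshold (up to 12 a comparison), the member of smallest p in each role and comparison, and pathway genes past the threshold (up to 10 a comparison); PSMB5 and other members near the threshold were named after their values were seen.

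Within groups, log2 signals of tested probe sets correlated at 0.973 to 0.985. Whether replicate numbers pair arrays was checked from deviations from the group means, by the numbers in the titles. Same-number correlations ran from 0.137 to 0.362 between knockdown and wild type, from 0.106 to 0.352 between knockdown and overexpression, and from 0.083 to 0.447 between overexpression and wild type; different numbers reached 0.18, 0.0895 and 0.284 in those comparisons. The bound was 0.1 for every pair, so blocked values stand beside the knockdown results. Alternatives were another pseudocount, no filter, quantile normalization, the block, a term for replicate 1, fits of 2 groups, no trend, the probe set by linear signal, leaving out each array and, added after seeing the data, replicates 2 and 3 alone. Figures were drawn with matplotlib 3.10.9.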

Additional observations from a re-analysis of the deposited data

How the results depend on the processing

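With 8 members called between knockdown and wild type, the count was 18 with the replicate block, 19 with a term for replicate 1, 15 in replicates 2 and 3 alone (chosen after seeing the data), 5 without a trend and between 5 and 11 when 1 array was left out. Between knockdown and overexpression, the 9 members became 18 under the replicate block, 19 under the replicate 1 term, and 6 to 9 when 1 array was left out. Leaving out 1 array also lowered the calls over all probe sets. They ran from 2213 to 3653 between knockdown and wild type, against 4289, and from 2040 to 3289 between knockdown and overexpression, against 3963. Between overexpression and wild type no member was called under any setting run; the replicate numbers did not meet the bound for pairing there, and the block raised the calls over all probe sets to 1022, against 130 without it. Quantile normalization gave a core particle median of 0.0351 and a regulatory particle median of 0.0720 for overexpression over wild type, a core particle median of -0.18 for knockdown over overexpression, and turned PSMB2 in overexpression over wild type to 0.0028. The regulatory particle median for knockdown over wild type was -0.0854 in replicates 2 and 3 alone. Leaving out 1 array, the medians for overexpression over wild type ran from -0.0475 to 0.0123 in the core particle and from 0.0296 to 0.0743 in the regulatory particle, and those of the regulatory particle from -0.0856 to -0.0370 for knockdown over wild type and from -0.21 to -0.11 for knockdown over overexpression. The cause of these shifts was not tested. Of the log2 fold changes of members named by rule under the alternatives, 411 kept their direction and side of the threshold, 30 lost the call, 8 gained it and 1 changed sign. The probe set of highest linear signal and a pseudocount of 16 left both knockdown counts as they were. Dim genes (PSMB8, PSMA8, PSMD5) gave no test.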
